A study of Mus musculus with 13 samples.

Results

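Collagens are the rod-like proteins that carry most of the tensile load of connective tissue, and each collagen molecule is wound from 3 chains, which may be alike or come from different genes. The genes described here are all those whose symbol in the deposited count files reads Col, a number, a, and a number, which gave 44 genes of the 53278 symbols. They were sorted by the structure their chains build: 11 fibrillar chains, 6 chains of the basement membrane network, 6 chains of the beaded filaments, 9 FACIT chains (fibril-associated collagens with interrupted triple helices), 2 multiplexins, 3 short-chain network collagens, 4 transmembrane collagens and 3 others. Reads were plentiful enough for testing for 35 of the 44.

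The 13 libraries came from hearts of male mice of strain C57Bl6, labelled WT, aged 17 weeks, that had been treated at 12 weeks of age. Sham mice (n = 3) had sham surgery and received no injection. IR mice (n = 3) had ischaemia followed by reperfusion (a temporary stop of the blood supply to heart muscle) and received no injection either, IR virus mice (n = 3) had the same injury with a control virus, and IR edit mice (n = 4) had it with a functional CaMKIIdelta editing system. CaMKIIδ is a calcium-activated kinase of heart muscle, and the series title describes CRISPR-Cas9 base editing against its oxidation. Each library is labelled as RNA from whole hearts, so scar, spared muscle, vessels and valves were read together, and a change in the number of cells of a type cannot be told apart from a change in RNA per cell. The kind, promoter and dose of the virus, the share of edited cells and any batch are not given in the labels. Nor do they say whether libraries share a litter or an animal, so p-values measure the spread between these libraries, which may in part be technical.

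Fibrillar collagens (types I, II, III, V, XI, XXIV and XXVII) assemble into the cables that replace lost muscle in a scar, and in the heart they are made chiefly by fibroblasts. Type IV forms the sheet-like network of basement membranes, which wraps each cardiomyocyte and underlies the endothelium, and type VI forms beaded filaments that tie cells and basement membranes to the fibrils around them. FACIT chains sit on the surface of fibrils, the multiplexins XV and XVIII border basement membranes, and type VIII builds short-chain lattices in vessel walls and in remodelling tissue.

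The exon structure of the genes, read from the GENCODE M21 annotation of mm10, follows these classes in part. In the 11 fibrillar genes 41.2% to 55.0% of the coding exons were exactly 54 bases long, a length that encodes whole Gly-X-Y triplets of 9 bases. In the 6 basement membrane genes that share was 2.1% to 5.7%, in the 6 beaded filament genes 7.0% to 8.6%, and in the 3 short-chain genes 0%, each of which has 2 coding exons. The FACIT genes were mixed, from 6.2% in Col12a1 to 44.4% in Col22a1. The shares of Col22a1, Col9a2 (43.8%) and Col9a3 (43.8%) lay within the fibrillar range.

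Several collagen genes are neighbours, and the sequences between them are shown because partner chains that start at one place are compared further on. Col4a1 (chromosome 8 from 11198423 to 11312826 on the minus strand) and Col4a2 (chromosome 8 from 11312805 to 11449287 on the plus strand) are transcribed away from each other, and their annotated first exons overlap by 22 bases, a stretch in which unstranded reads cannot be assigned to either gene. Col4a4 (chromosome 1 from 82448423 to 82586849 on the minus strand) and Col4a3 (chromosome 1 from 82586921 to 82722059 on the plus strand) are also transcribed away from each other, with 71 bases between them. The other head-to-head pair, Col4a6 and Col4a5 on chromosome X, is separated by 1308 bases. These stretches read, in the mm10 build (GRCm38):
Overlap of Col4a1 and Col4a2, chr8:11312805-11312826 (plus strand): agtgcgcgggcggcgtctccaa
Between Col4a4 and Col4a3, chr1:82586850-82586920 (minus strand): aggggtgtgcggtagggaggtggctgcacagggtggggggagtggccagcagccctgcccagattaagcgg

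The 150 bases before the RefSeq start (GRCm38.p6) are shown for 4 chains that the comparisons turn on: Col3a1, the fibrillar chain with the most reads, and Col8a2, Col6a5 and Col11a1, whose levels in IR edit lay nearer to Sham than those of IR and IR virus did. Capitals mark the letters CCAAT or TATAA on either strand, where overlapping matches form 1 run.
Col3a1, chr1:45311388-45311537 (plus strand): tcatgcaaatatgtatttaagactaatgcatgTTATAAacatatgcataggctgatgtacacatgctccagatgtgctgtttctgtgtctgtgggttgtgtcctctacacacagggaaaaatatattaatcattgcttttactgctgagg
Col8a2, chr4:126286644-126286793 (plus strand): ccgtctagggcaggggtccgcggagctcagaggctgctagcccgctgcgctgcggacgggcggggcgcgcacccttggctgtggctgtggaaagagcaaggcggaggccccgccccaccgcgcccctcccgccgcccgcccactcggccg
Col6a5, chr9:105960644-105960793 (minus strand): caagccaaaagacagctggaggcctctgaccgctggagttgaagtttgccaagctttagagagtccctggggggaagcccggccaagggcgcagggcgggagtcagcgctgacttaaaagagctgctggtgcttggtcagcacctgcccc
Col11a1, chr3:114030390-114030539 (plus strand): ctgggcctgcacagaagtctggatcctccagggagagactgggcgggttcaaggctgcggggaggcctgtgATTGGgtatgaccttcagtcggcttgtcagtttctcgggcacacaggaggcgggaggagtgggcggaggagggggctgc
Over 38 promoter windows of 300 bases that RefSeq gives for 35 of the 44 genes, CCAAT occurred on either strand in 34.2% of the windows (37.4% of 32851 promoters of the same length), TATAA in 18.4% (24.9%), CAGAC in 52.6% (49.6%) and GGGCGG in 60.5% (35.7%). These are matches of letters only and were not tested against the levels.

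The libraries held between 20634820 and 27265276 counted reads, of which collagen chains took 0.118% to 0.159% in Sham, 0.182% to 0.225% in IR, 0.186% to 0.301% in IR virus and 0.163% to 0.334% in IR edit. Levels are given in CPM, read counts divided by the library total after TMM scaling and given on the usual CPM scale. IR edit replicates 2 and 4 lay farthest from the other hearts on the first principal component of all genes. For the collagen chains, the calls in IR edit minus Sham are given with and without them. Transcripts of Camk2d, the gene the editing system targets, averaged 251 ± 45.1 CPM in Sham, 241 ± 5.42 in IR, 217 ± 18.4 in IR virus and 223 ± 17.9 in IR edit (SD), which is no check of editing, since base editing changes the sequence and need not change the transcript level.

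Comparing chains with each other needs a scale per length, here CPM per kilobase of the longest coding transcript. Col4a1 led in Sham with a mean of 52.5 CPM per kb, followed by Col3a1 with 36.1, Col4a2 with 33.8, Col1a2 with 17.1 and Col6a1 with 14.9. The same 4 chains led in every group, with Col3a1 (70.7) beside Col4a1 (69.0) at the top in IR, and Col4a1 at 79.3 in IR virus and 103 in IR edit. Per kilobase of all annotated exons instead, Col4a1 and Col4a2 were first and second in each group.

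**Figure D1:**
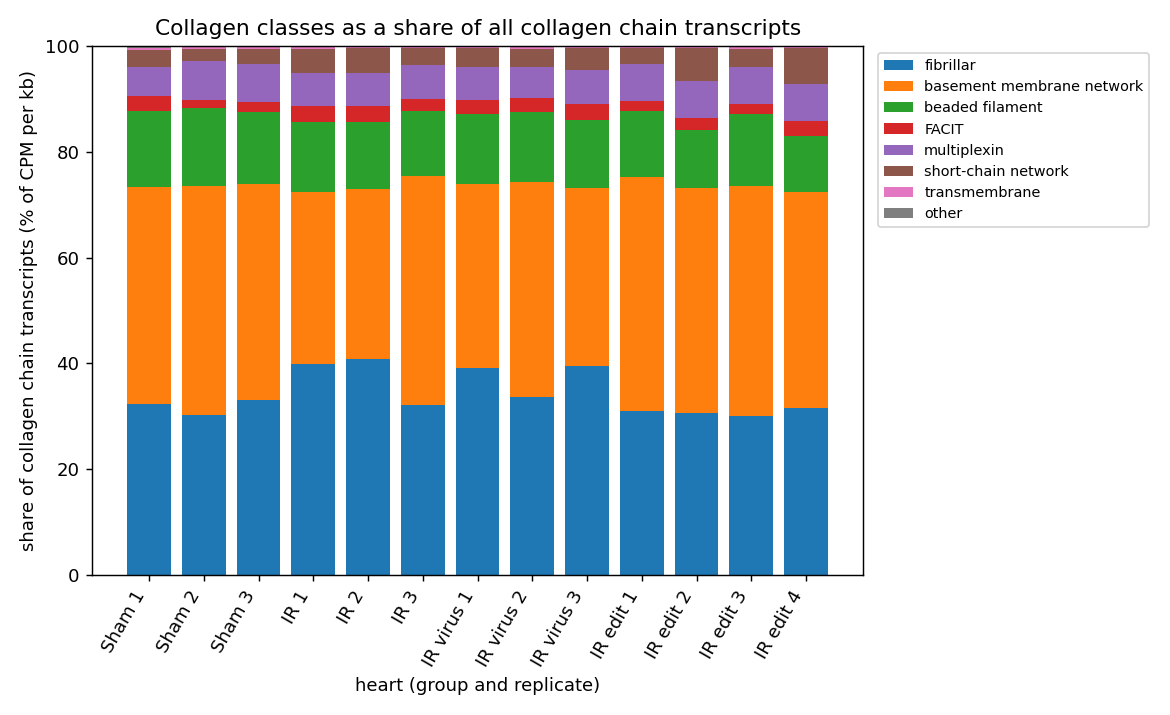
Share of each structural class among all collagen chain transcripts, in percent of summed CPM per kb (vertical axis), in each of the 13 hearts (horizontal axis, stacked bars). Fibrillar chains took 30.3% to 33.1% in Sham and 30.1% to 31.6% in IR edit, against 32.1% to 40.9% in IR and 33.7% to 39.5% in IR virus.

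The make-up of this pool is shown in the plot of class shares. Fibrillar chains made up 37.6% ± 4.82 of it in IR and 37.5% ± 3.29 in IR virus, against 31.9% ± 1.41 in Sham and 30.8% ± 0.629 in IR edit (mean ± SD over 3 hearts, or 4 for IR edit), so that all 4 IR edit hearts lay below every IR and IR virus heart. Basement membrane chains made up 41.7% ± 1.33 in Sham, 36.0% ± 6.36 in IR, 36.4% ± 3.79 with the control virus and 42.7% ± 1.47 in IR edit, and here IR edit (40.8% to 44.2%) lay above IR virus (33.6% to 40.7%) and overlapped IR, whose replicate 3 stood at 43.3%. These shares describe proportions within the collagen pool and were not tested.

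The first comparison asks how collagen transcripts of injured hearts without editing stood against Sham. Most chains were higher: 32 of the 35 tested had a positive log2 fold change in IR and 31 of 35 in IR virus (50.2% and 51.7% of all genes tested). The median over the chains was 0.44 in IR minus Sham and 0.67 in IR virus minus Sham on the log2 scale, beside 0.00 and 0.01 over all genes. With both unedited injured groups averaged, the medians were 0.88 for 9 fibrillar chains, 0.45 for 6 basement membrane chains, 0.66 for 5 beaded filament chains and 0.89 for 6 FACIT chains. In 14 of the 35 chains every unedited injured heart lay above every Sham heart (4.79% of all genes): Col1a1, Col1a2, Col3a1, Col5a2, Col4a1, Col4a3, Col4a4, Col4a5, Col6a5, Col12a1, Col14a1, Col16a1, Col8a1 and Col8a2. Col6a5, which is also in the beaded filament median, met the count filter through 3 IR, 2 IR virus and 0 other hearts. Its inclusion thus rested on the groups in which it was high and is no support for the rise. Col9a2, in the FACIT median, met it through 1 IR virus and 2 IR edit hearts.

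No chain passed an adjusted p of 0.05 in this comparison when all 13 libraries shared one estimate of the spread, in edgeR's quasi-likelihood test; few genes of any kind did (0.0191% of all genes). At an unadjusted p under 0.05, 23 of the 35 chains were higher (7.85% of all genes) and 0 lower (6.1%), and DESeq2's Wald test called 12 (1.54% of all genes). The shared estimate of the spread includes the 4 IR edit hearts. Fitted to the 9 libraries of Sham, IR and IR virus alone, the same test called 16 of 34 chains, all higher (1.72% of 15393 genes): Col1a1, Col1a2, Col3a1, Col5a1, Col5a2, Col4a1, Col4a3, Col4a4, Col6a2, Col6a3, Col6a5, Col8a1, Col8a2, Col12a1, Col14a1 and Col16a1. Of these, Col6a5 met the count filter only through the injured hearts, in which it was high. Col1a1, for example, had a log2 fold change of 1.15 (adjusted p = 0.00647) in the fit of 9 libraries and 1.16 (adjusted p = 0.0789) in the fit of 13. Compared singly, the fit of all libraries called 0 chains in IR minus Sham (0.0127% of all genes) and 0 in IR virus minus Sham (0.0127%), with 18 and 23 chains higher at an unadjusted p under 0.05 (5.25% and 8.64%).

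In the hearts that had received the editing system, 16 of the 35 chains rose against Sham and 0 fell (4.61% of all genes rose and 3.4% fell). They were 4 fibrillar chains (Col1a1, Col1a2, Col5a1 and Col5a2), 4 of the basement membrane (Col4a1, Col4a2, Col4a3 and Col4a4), 1 of the beaded filaments (Col6a2), 4 FACIT chains (Col12a1, Col14a1, Col16a1 and Col22a1), both multiplexins (Col15a1 and Col18a1) and Col8a1. Class medians of the log2 fold change were 0.78 for fibrillar, 0.93 for basement membrane, 0.50 for beaded filament and 1.51 for FACIT chains, beside 0.00 over all genes. The FACIT median includes Col9a2, which met the count filter through 1 IR virus and 2 IR edit hearts only. Its inclusion thus rested mainly on the group in which it was high. Just outside the threshold lay Col3a1 (adjusted p = 0.0516), Col5a3 (0.0658) and Col6a1 (0.0663). With IR edit replicates 2 and 4 left out, 34 chains were tested and 3 were called, Col4a3, Col4a4 and Col22a1 (0.994% of all genes called in that fit). The class medians became 0.42, 0.65, 0.55 and 0.60. The other 13 chains were no longer called there, with log2 fold changes and adjusted p of 0.72 and 0.267 for Col1a1, 0.40 and 0.487 for Col1a2, 0.44 and 0.435 for Col5a1, and 0.42 and 0.461 for Col5a2. They were 0.72 and 0.0591 for Col4a1, 0.66 and 0.101 for Col4a2, and 0.58 and 0.2195 for Col6a2. They were 0.60 and 0.637 for Col12a1, 0.39 and 0.585 for Col14a1, 0.69 and 0.1596 for Col16a1, 0.65 and 0.282 for Col15a1, 0.46 and 0.2699 for Col18a1, and 0.77 and 0.129 for Col8a1. All 13 thus stayed positive. Every IR edit heart lay above every Sham heart in 16 chains (8.22% of all genes), and below in 1, Col25a1 (8.18%). Called in either direction were 8.01% of all genes. In a fit of Sham and IR edit alone 4 chains were called (1.62% of all genes). Of the 16 calls 7 held whichever single library was left out (Col4a1, Col4a2, Col4a3, Col4a4, Col8a1, Col16a1 and Col22a1). The other 9, Col1a1, Col1a2, Col5a1, Col5a2, Col6a2, Col12a1, Col14a1, Col15a1 and Col18a1, were each lost without at least 1 library, among them Sham replicate 3 in each case. The count was 8 without Sham replicate 1 (4.03% of all genes) and 7 without Sham replicate 3 (4.16%). It was 8 without IR edit replicate 2 (3.06%) and 9 without IR edit replicate 4 (3.52%).

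Between IR edit and IR virus, which differ in what was injected, 2 chains, Col6a5 and Col11a1, fell and 0 rose (1.06% of all genes fell, 0.962% rose and 2.02% did either). The median over the 35 chains was -0.04, with -0.25 for fibrillar chains (2 of 9 positive), -0.30 for beaded filament chains (0 of 5 positive), 0.31 for basement membrane chains (4 of 6 positive) and 0.15 for FACIT chains (4 of 6 positive). The count against IR virus was 0 without IR virus replicate 1 or 3 (0.603% and 0.715% of all genes). It was 6 without IR edit replicate 3 (2.77%). It was 1 without Sham replicate 2 or 3, IR replicate 1 or IR edit replicate 2 (1.82%, 2.09%, 1.54% and 0.934%). Col6a5 passed the filter on low counts only through IR and IR virus libraries, so its inclusion in any test rested on the groups in which it was high. Col9a2, which is part of the FACIT median, passed it through 1 IR virus and 2 IR edit libraries only. Hearts of the groups did not overlap for Col6a5 and Col11a1, which were lower in IR edit (7.07% of all genes), and for Col5a3 and Col22a1, which were higher (6.83% of all genes). Against IR, Col6a5 fell and Col22a1 rose (0.637% and 0.784% of all genes, 1.42% in either direction), and no other chain passed. That count of 2 became 8 without IR edit replicate 3 (3.13% of all genes). It became 4 without IR edit replicate 1 (1.93%), and 1 without IR replicate 2 (0.37%). The groups did not overlap in 4 chains that were higher in IR edit (Col4a3, Col4a4, Col5a3 and Col22a1, 5.97% of all genes) and in 2 that were lower (Col6a5 and Col25a1, 6.85%). Between IR virus and IR 0 chains passed (0% of all genes in edgeR's test, and 0 chains at an unadjusted p under 0.05, beside 2.26% of all genes higher and 1.59% lower; DESeq2 called 0). Still, 30 of the 35 log2 fold changes were positive (50.2% of all genes) with a median of 0.20, and 3 chains, Col28a1, Col4a2 and Col18a1, were higher without overlap (5.86%).

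**Figure D2:**
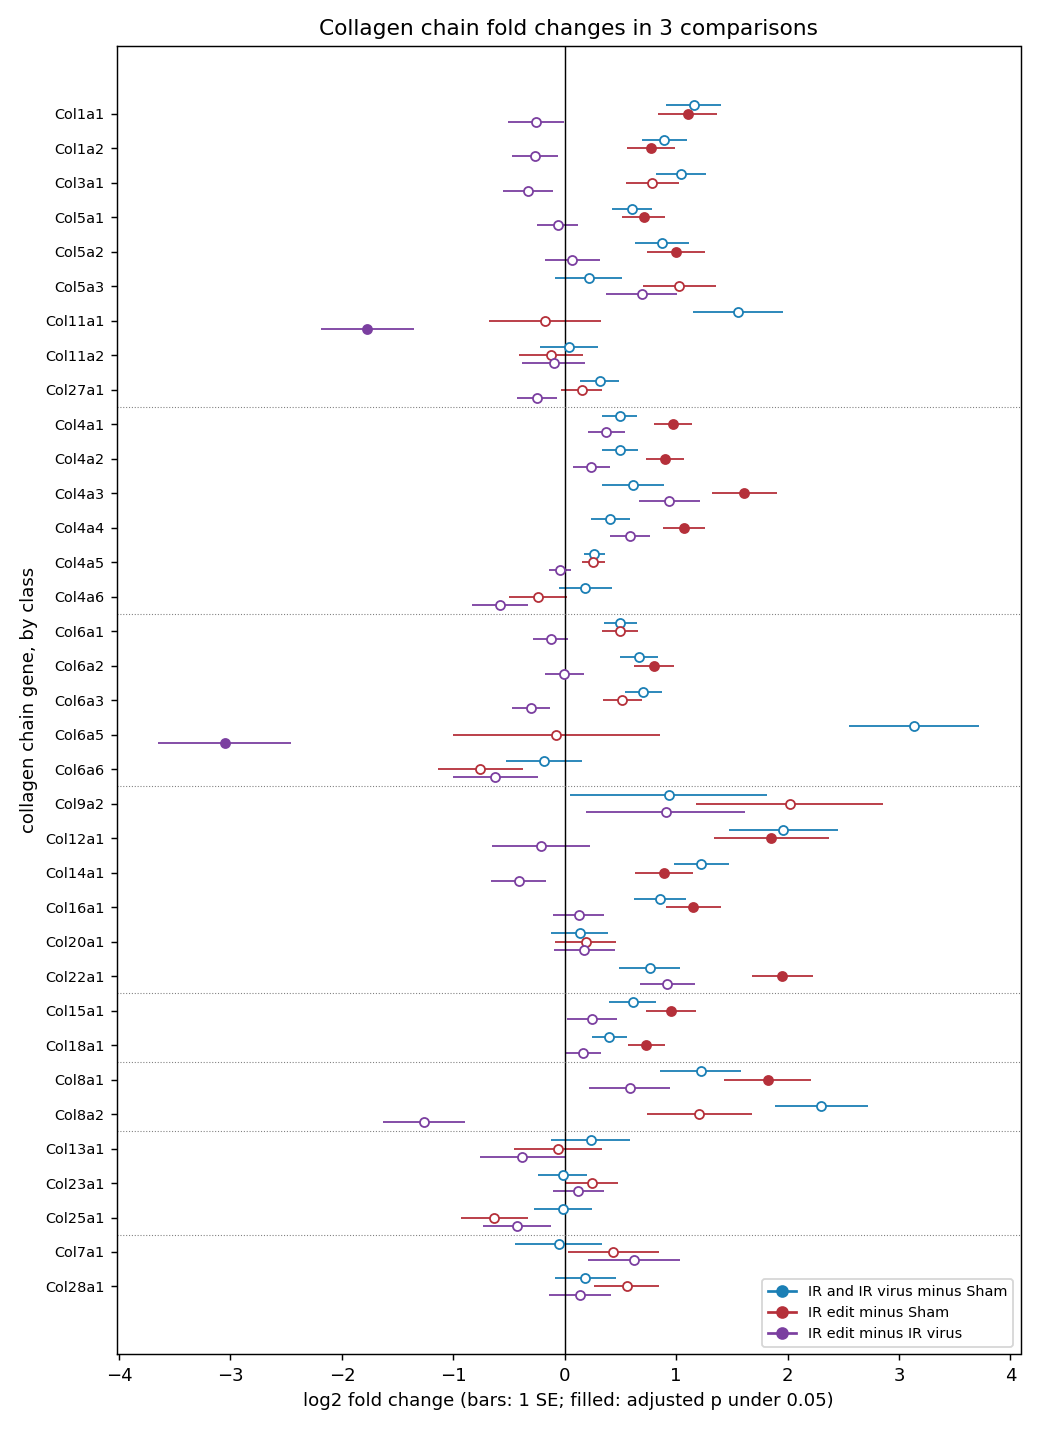
Log2 fold change with its standard error for each tested collagen chain, grouped by structural class, for unedited injured hearts and IR edit hearts against Sham, and for IR edit against IR virus. Filled points passed an adjusted p of 0.05 and open points did not; Col6a5 and Col11a1 lie farthest to the left in IR edit minus IR virus.

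Among the fibrillar chains, the major ones were higher in all injured groups. Col1a1, the main chain of type I collagen, stood at 39.2, 56.5 and 39.5 CPM in Sham, 91.7, 101 and 70.4 in IR, 153, 79.3 and 114 in IR virus, and 92.1, 105, 55.7 and 134 in IR edit. All IR and IR virus hearts lay above Sham, whereas IR edit replicate 3 fell within the Sham range. Its log2 fold change was 1.16 ± 0.25 (SE, adjusted p = 0.0789) in unedited injured hearts and 1.10 ± 0.26 (SE, adjusted p = 0.0202) in IR edit, both against Sham. Its partner Col1a2 stood at 99.6, 96.2 and 78.1 CPM in Sham, 169, 168 and 122 in IR, 225, 142 and 198 in IR virus, and 142, 177, 98.1 and 209 in IR edit. Its log2 fold change was 0.78 ± 0.21 (SE, adjusted p = 0.0389) in IR edit minus Sham, a call kept in 10 of 22 alternatives. It was lost without any 1 of the Sham hearts, IR replicate 1 or 2, IR virus replicate 3, or IR edit replicate 2 or 4. Only the lowest IR edit heart, replicate 3, overlapped Sham.

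Col3a1, the chain of the finer type III fibrils, stood at 167, 218 and 218 CPM in Sham, 459, 452 and 268 in IR, 528, 283 and 495 in IR virus, and 339, 377, 241 and 429 in IR edit. All 10 injured hearts lay above the Sham hearts, the nearest being IR edit replicate 3. The log2 fold change was 1.04 ± 0.22 (SE, adjusted p = 0.0791) in unedited injured hearts and 0.79 ± 0.23 (SE, adjusted p = 0.0516) in IR edit, and -0.33 ± 0.23 (SE, adjusted p = 0.523) between IR edit and IR virus.

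Type V collagen sits inside the heterotypic fibrils and limits their diameter. Its chain Col5a1 stood at 30.6, 43.4 and 30.7 CPM in Sham, 49.7, 49.7 and 42.8 in IR, 72.1, 44.6 and 62.1 in IR virus, and 55.8, 65.8, 38.6 and 67.9 in IR edit. In IR edit minus Sham its log2 fold change was 0.71 ± 0.19 (SE, adjusted p = 0.0349), with IR edit replicate 3 inside the Sham range. Col5a2 stood at 36.5, 40.2 and 36.6 CPM in Sham, 75.6, 72.4 and 52.6 in IR, 82.7, 49.8 and 83 in IR virus, and 56, 94.1, 44.6 and 106 in IR edit. Sham and the 10 injured hearts did not overlap, and it rose by 1.0 on the log2 scale in IR edit (adjusted p = 0.0296), a call kept in 13 of 22 alternatives and lost without any 1 of the Sham hearts or IR edit replicate 2 or 4. The third chain, Col5a3, followed another pattern and is singled out after its values were seen. It stood at 5.82, 22.3 and 17.1 CPM in Sham, 17.7, 16.2 and 14 in IR, 25.7, 11.3 and 19.7 in IR virus, and 36.8, 30.9, 26.8 and 27.3 in IR edit. The 4 IR edit hearts were the 4 highest of all 13. Its log2 fold change was 1.03 ± 0.33 (SE, adjusted p = 0.0658) against Sham and 0.69 ± 0.32 (SE, adjusted p = 0.323) against IR virus.

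Col11a1 (chromosome 3 from 114030540 to 114220718 on the plus strand) encodes the alpha 1 chain of type XI collagen, best known from cartilage. It stood at 0.566, 0.431 and 0.378 CPM in Sham, 1.52, 1.96 and 0.52 in IR, 1.79, 0.882 and 1.56 in IR virus, and 0.408, 0.269, 0.673 and 0.324 in IR edit. The IR virus hearts and IR replicates 1 and 2 were high, while IR replicate 3 and all 4 IR edit hearts were at or near the Sham level. Between IR edit and IR virus it fell, with a log2 fold change of -1.77 ± 0.42 (SE, adjusted p = 0.0411), where the pooled reads were 38 in IR edit and 103 in IR virus, a ratio of 3.48 in favour of IR virus (exact 95% interval 2.38 to 5.19, for counting error only). Against Sham the unedited injured hearts differed by 1.56 ± 0.40 (SE, adjusted p = 0.115). The call against IR virus was lost without IR edit replicates 2 and 4 together (-1.77 became -1.42, adjusted p = 0.314), and also when 1 library was left out that was Sham replicate 2 or 3, IR replicate 1, IR virus replicate 1 or 3, or IR edit replicate 1, 2 or 4, with log2 fold changes from -1.77 to -1.56. The summed level of 7 cartilage markers was 19.8 to 25.9 CPM in Sham, 27.4 to 40.6 in IR, 30.9 to 40.5 in IR virus and 20.9 to 29.3 in IR edit. Of these markers Prg4, a lubricating proteoglycan, fell between IR edit and IR virus (-0.67, adjusted p = 0.0275), as did 1.06% of all genes. Chad (-0.62, adjusted p = 0.495), Cnmd (-0.44, adjusted p = 0.699) and Sox9 (0.01, adjusted p = 0.990), also cartilage markers, were not called there. The part of such cells in the Col11a1 values was not tested. Of the remaining fibrillar chains, Col11a2 and Col27a1 passed no comparison.

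**Figure D3:**
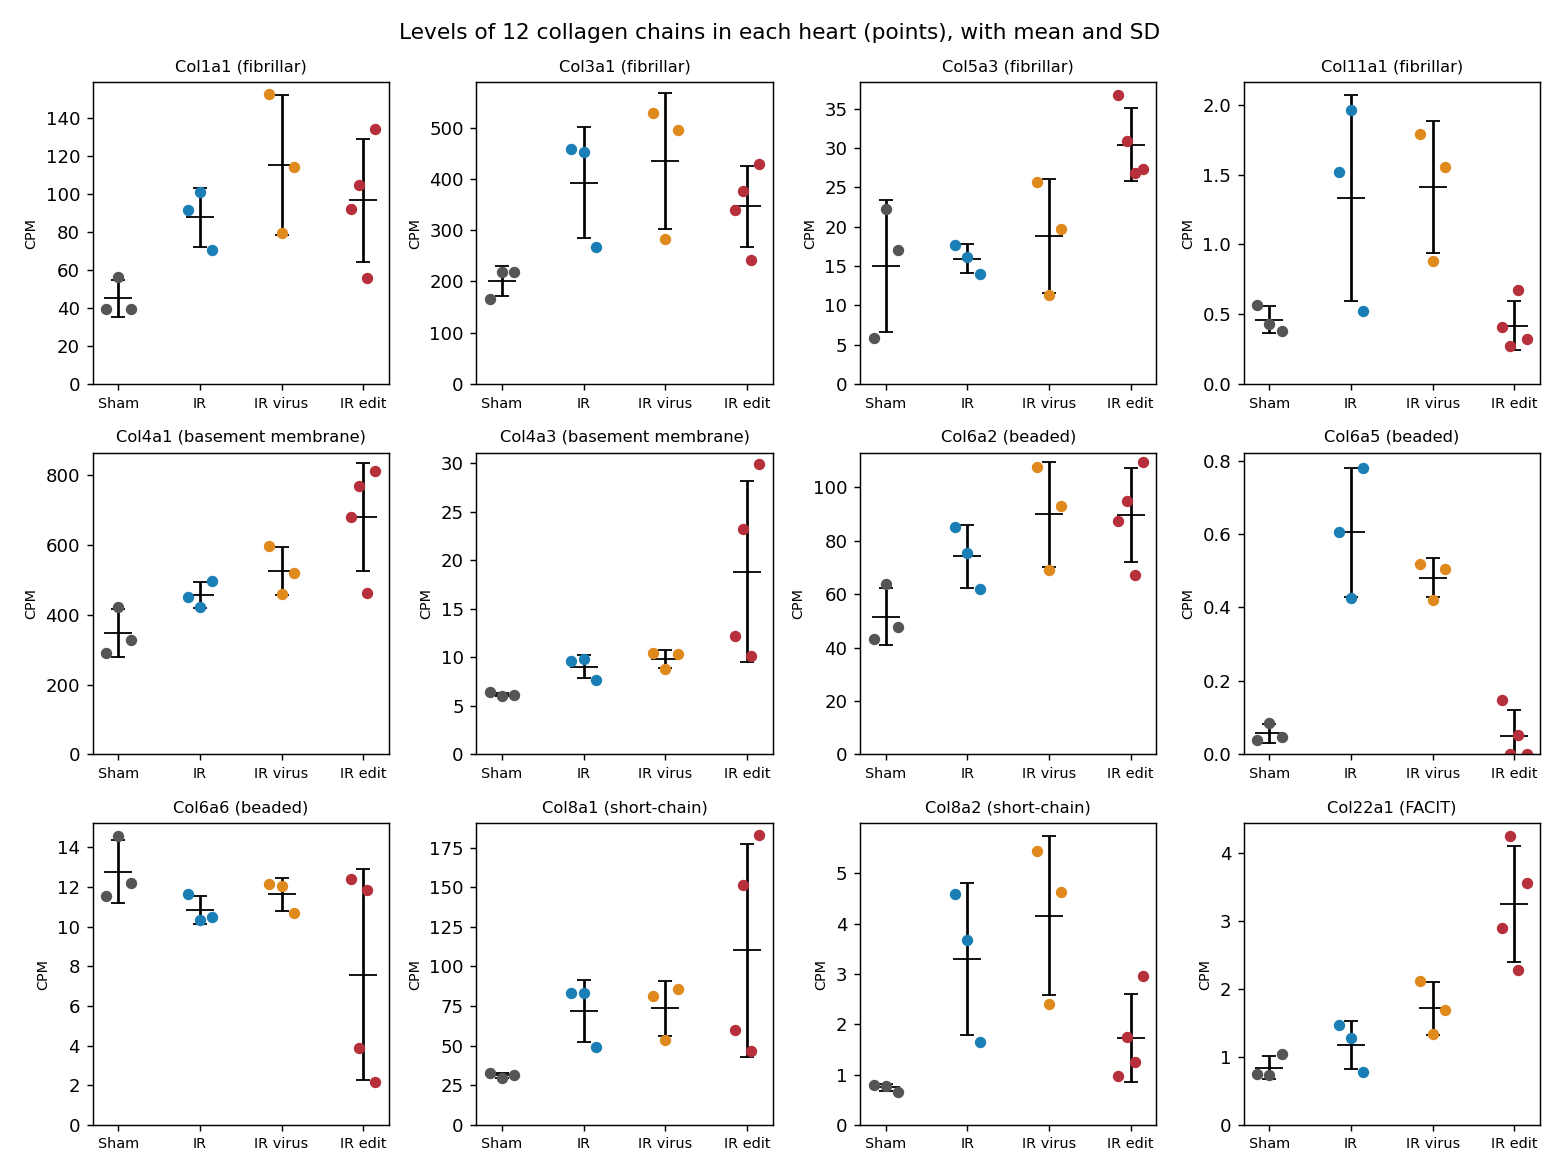
Level in CPM (vertical axes, each starting at 0) of 12 collagen chains in each heart (points), by group, with the mean as a horizontal line and the SD as bars. Col6a5, Col11a1 and Col8a2 had lower means in Sham and IR edit than in IR and IR virus, and Col22a1 and Col5a3 were highest in IR edit.

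Of the 6 basement membrane chains 4 rose in IR edit. Col4a1 stood at 290.4, 422 and 329 CPM in Sham, 451, 423 and 496 in IR, 596, 458 and 519.7 in IR virus, and 679, 767, 462 and 812 in IR edit. IR edit replicates 1, 2 and 4 were the 3 highest of all 13 hearts, and replicate 3 lay within the IR and IR virus ranges. Its log2 fold change was 0.50 ± 0.16 (SE, adjusted p = 0.199) in unedited injured hearts and 0.97 ± 0.17 (SE, adjusted p = 0.00487) in IR edit. Col4a2, its partner in the common type IV molecule, stood at 188, 273 and 193 CPM in Sham, 266, 258 and 298 in IR, 403, 299.5 and 332 in IR virus, and 406, 453, 283 and 484 in IR edit. It rose by 0.90 ± 0.17 (SE, adjusted p = 0.00721) in IR edit.

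Col4a3 and Col4a4 belong to the type IV molecule known from kidney and lung basement membranes. Col4a3 stood at 6.38, 6.03 and 6.1 CPM in Sham, 9.61, 9.85 and 7.71 in IR, 10.5, 8.78 and 10.3 in IR virus, and 12.2, 23.2, 10.1 and 29.9 in IR edit. All injured hearts lay above Sham, and IR edit replicates 2 and 4 stood well above every other heart. The log2 fold change in IR edit was 1.61 ± 0.29 (SE, adjusted p = 0.00546) against Sham and 0.94 ± 0.28 (SE, adjusted p = 0.105) against IR virus. Without those 2 replicates it was 0.86 against Sham (adjusted p = 0.00707). Of its annotated exon bases, 5.65% overlap an antisense transcript, C430014B12Rik, from which reads cannot be told apart where counting ignored strand. Col4a4 stood at 11.8, 13.4 and 12.7 CPM in Sham, 16.5, 16.9 and 14.5 in IR, 19.3, 16.6 and 17.1 in IR virus, and 21.9, 33.4, 17.3 and 33.3 in IR edit. Every injured heart again lay above Sham, and it rose by 1.07 ± 0.18 (SE, adjusted p = 0.00455) in IR edit. Col4a4 and Col22a1 were the only chains called in IR edit minus Sham under all 22 alternative settings, and Col4a1, Col4a2 and Col4a3 were called under 21. Col4a5 and Col4a6, the X-linked pair, passed no comparison, and Col4a6 had a log2 fold change of -0.58 ± 0.25 (SE, adjusted p = 0.295) between IR edit and IR virus.

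Of the 5 tested beaded filament chains 1 rose in IR edit against Sham. Col6a1 stood at 57.3, 70.8 and 54.9 CPM in Sham, 86.5, 84.7 and 66.2 in IR, 112, 73 and 96.5 in IR virus, and 87.1, 91.2, 65.6 and 99.8 in IR edit. It differed by 0.50 ± 0.16 (SE, adjusted p = 0.0663) between IR edit and Sham. Col6a2 stood at 43.2, 63.6 and 47.7 CPM in Sham, 85.2, 75.3 and 61.8 in IR, 108, 69 and 92.9 in IR virus, and 87.2, 94.9, 67.1 and 109 in IR edit. It rose by 0.80 ± 0.18 (SE, adjusted p = 0.0168), with every IR edit heart above Sham. Col6a3 stood at 28.5, 45.4 and 32.6 CPM in Sham, 57.5, 56.1 and 47.2 in IR, 76.4, 44 and 67.3 in IR virus, and 58, 51.9, 46.2 and 46.8 in IR edit. It differed by 0.52 ± 0.18 (SE, adjusted p = 0.0844).

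Col6a5 (chromosome 9 from 105856078 to 105960643 on the minus strand) encodes one of the additional type VI chains that can take the place of alpha 3. Its counts were very low: 1, 2 and 1 reads in Sham, 14, 10 and 18 in IR, 13, 10 and 12 in IR virus, and 4, 0, 1 and 0 in IR edit. Every IR and IR virus heart had at least 10 reads and every Sham and IR edit heart at most 4. The count filter (10 reads in a library of median size, in 3 libraries) was met by 3 IR, 2 IR virus and 0 other hearts, so the tests of Col6a5 are not independent of that difference and are given as a description. With a filter at 1 CPM it was not tested, nor in a fit of IR edit and IR virus alone. It was lower in IR edit than in IR virus, with a log2 fold change of -3.05 ± 0.60 (SE, adjusted p = 0.0164), and lower than in IR, with -3.38 ± 0.58 (SE, adjusted p = 0.00765), and differed by 3.14 ± 0.58 (SE, adjusted p = 0.0512) between unedited injured hearts and Sham. Pooled over libraries, IR virus had 8.99 times the IR edit level (exact 95% interval 3.51 to 29.4) and IR 10.7 times the Sham level (3.88 to 41.0), both for counting error only. The call against IR virus was lost without IR virus replicate 1 (adjusted p = 0.0795) or 3 (0.063), and without IR edit replicates 2 and 4 (0.118), which both had 0 reads, and the call against IR likewise (0.0603).

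Col6a6, the neighbour of Col6a5 on chromosome 9, is named after its values were seen. It stood at 11.6, 14.6 and 12.2 CPM in Sham, 11.6, 10.4 and 10.5 in IR, 12.1, 12.1 and 10.7 in IR virus, and 12.4, 3.9, 11.9 and 2.14 in IR edit. IR edit replicates 2 and 4 were far below the other 11 hearts, which spanned 10.4 to 14.6 CPM. Its log2 fold change was -0.76 ± 0.38 (SE, adjusted p = 0.245) in IR edit minus Sham, and in IR edit minus IR virus it was -0.62 ± 0.38 (SE, adjusted p = 0.464) with and 0.063 without those 2 replicates.

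Among the 16 chains that rose in IR edit against Sham, the FACIT chains Col22a1 and Col12a1 had the largest log2 fold changes. Col22a1 (chromosome 15 from 71795795 to 72034227 on the minus strand) encodes a chain known from tissue junctions of muscle, among them the heart. It stood at 0.755, 0.732 and 1.04 CPM in Sham, 1.47, 1.28 and 0.78 in IR, 2.11, 1.34 and 1.68 in IR virus, and 2.89, 4.26, 2.28 and 3.56 in IR edit. All 4 IR edit hearts lay above all 9 others. It rose by 1.95 ± 0.27 (SE, adjusted p = 0.00121) against Sham and by 1.46 ± 0.26 (SE, adjusted p = 0.0102) against IR, and differed by 0.92 ± 0.24 (SE, adjusted p = 0.0697) against IR virus. The call against IR was lost without IR replicate 2 (adjusted p = 0.0549) and without IR edit replicates 2 and 4 (0.11).

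Col12a1, which links fibrils to their surroundings and is abundant in tissue under tension, stood at 2.3, 3.1 and 2.13 CPM in Sham, 10.3, 11.6 and 5.33 in IR, 12.5, 6.01 and 13.2 in IR virus, and 3.26, 11.2, 4.45 and 17.4 in IR edit. IR edit was split: replicate 4 was the highest of all 13 hearts, replicate 2 lay among the IR and IR virus values, and replicates 1 and 3 lay between those and Sham. The log2 fold change was 1.96 ± 0.49 (SE, adjusted p = 0.102) in unedited injured hearts and 1.86 ± 0.52 (SE, adjusted p = 0.0399) in IR edit, where it was 0.60 (adjusted p = 0.637) without replicates 2 and 4. Col14a1, found on mature fibrils, stood at 25.3, 18.5 and 16.8 CPM in Sham, 52.3, 50.9 and 31.5 in IR, 54.2, 38.7 and 57 in IR virus, and 30.3, 42.8, 22.7 and 54.1 in IR edit. IR edit replicate 3 lay inside the Sham range. The chain rose by 0.89 ± 0.26 (SE, adjusted p = 0.0495) in IR edit, a call kept in 7 of 22 alternatives. Col16a1 stood at 5.82, 4.99 and 5.25 CPM in Sham, 10.6, 7.97 and 7.19 in IR, 12.8, 8.06 and 12 in IR virus, and 9.42, 13, 7.81 and 17.4 in IR edit. Every injured heart lay above Sham, and it rose by 1.15 ± 0.24 (SE, adjusted p = 0.0123) in IR edit. Col9a2, which met the count filter through 1 IR virus and 2 IR edit hearts only, had 7, 2 and 3 reads in Sham, 8, 9 and 3 in IR, 13, 6 and 8 in IR virus, and 5, 16, 1 and 44 in IR edit. IR edit replicate 4 alone held 44 of those reads, and its log2 fold change of 2.02 ± 0.84 (SE) in IR edit minus Sham had an adjusted p of 0.157. Col20a1 passed no comparison.

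Both multiplexins rose in IR edit against Sham. Col15a1, anchored between basement membranes and the matrix and required for intact capillaries and muscle, stood at 51.8, 97.8 and 76.3 CPM in Sham, 114, 113 and 95 in IR, 147, 87.5 and 134 in IR virus, and 137, 163, 98.1 and 184 in IR edit. Col18a1, the source of the endostatin fragment, stood at 7.02, 5.98 and 5.96 CPM in Sham, 7.79, 6.95 and 7.58 in IR, 10.7, 8.15 and 9.34 in IR virus, and 10.2, 11.8, 7.14 and 12.9 in IR edit. Both chains overlapped between Sham and the unedited groups taken as one, and every IR edit heart lay above Sham for both chains. Their log2 fold changes in IR edit minus Sham were 0.95 ± 0.23 (SE, adjusted p = 0.0209) and 0.73 ± 0.17 (SE, adjusted p = 0.0168). Against IR virus Col15a1 differed by 0.24 ± 0.22 (SE, adjusted p = 0.645), which became -0.065 without IR edit replicates 2 and 4.

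The type VIII chains are partners with unlike values here. Col8a1 stood at 32.5, 29.4 and 31.7 CPM in Sham, 83, 83.1 and 49.3 in IR, 81.1, 53.8 and 85.8 in IR virus, and 59.6, 152, 46.7 and 183 in IR edit. The 10 injured hearts lay above Sham, and IR edit replicates 2 and 4 were the highest of all. It rose by 1.82 ± 0.39 (SE, adjusted p = 0.0125) in IR edit, which became 0.77 (adjusted p = 0.129) without those 2 replicates and was also not called with robust dispersion or in a fit of both groups alone, and differed by 1.22 ± 0.36 (SE, adjusted p = 0.179) in unedited injured hearts. Col8a2 stood at 0.793, 0.775 and 0.662 CPM in Sham, 4.59, 3.67 and 1.65 in IR, 5.45, 2.39 and 4.63 in IR virus, and 0.965, 1.75, 1.24 and 2.95 in IR edit. It too was above Sham in every injured heart, and IR edit overlapped IR and IR virus only through replicates 2 and 4. Its log2 fold change was 2.30 ± 0.42 (SE, adjusted p = 0.0504) in unedited injured hearts, 1.21 ± 0.47 (SE, adjusted p = 0.128) in IR edit against Sham, and -1.26 ± 0.37 (SE, adjusted p = 0.102) between IR edit and IR virus.

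Within each heart, the level of Col8a2 per kb divided by that of Col8a1 was 0.0522 ± 0.0129 in IR and 0.0651 ± 0.0134 in IR virus, against 0.0282 ± 0.00330 in Sham and 0.0208 ± 0.00752 in IR edit (mean ± SD, n = 3, for IR edit 4). The IR edit hearts (0.0136 to 0.0314) and Sham hearts (0.0246 to 0.0311) lay below all IR (0.0394 to 0.0652) and IR virus (0.0525 to 0.0793) hearts. A ratio within a heart shows unequal change of the chains and not which of them changed.

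Ratios were taken for 2 of the head-to-head type IV pairs, not for Col4a6 and Col4a5, and they differed in how far they moved. Col4a2 over Col4a1 was 0.643 ± 0.0360 for Sham hearts, 0.616 ± 0.00982 for IR, 0.673 ± 0.0201 for IR virus and 0.615 ± 0.0103 for IR edit, again as mean ± SD. The ratio of these chains spanned 0.602 to 0.695 over all 13 hearts. Col4a4 over Col4a3 was 1.74 ± 0.163, 1.5 ± 0.0798, 1.52 ± 0.104 and 1.28 ± 0.260 in the same order, and spanned 0.944 to 1.89. Counting error is larger in this ratio, since Col4a3 had 129 to 739 reads per heart and Col4a2 4074 to 11966. The part of a shared start in either ratio was not tested. The lowest values of Col4a4 over Col4a3 were those of IR edit replicates 4 (0.944) and 2 (1.22), while IR edit replicates 1 (1.52) and 3 (1.45) lay among the IR and IR virus hearts. Col1a2 over Col1a1 was 2.30 ± 0.472, 1.93 ± 0.102, 1.84 ± 0.187 and 1.82 ± 0.116 in the same order. That ratio depends on the length used: per kilobase of all annotated exons it was 1.10, 0.921, 0.879 and 0.865. Col6a2 over Col6a1 was 0.873 ± 0.0791, 0.972 ± 0.0492, 0.994 ± 0.0107 and 1.08 ± 0.0418, and the 4 IR edit hearts (1.04 to 1.14) lay above all 9 others. Col4a1 over Col1a1, which sets the basement membrane against the fibrillar chain, was 6.93 ± 0.455, 4.82 ± 1.33, 4.25 ± 0.858 and 6.51 ± 0.828, with IR replicate 3 (6.31) inside the IR edit range of 5.42 to 7.43 and all IR virus hearts below it.

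**Figure D4:**
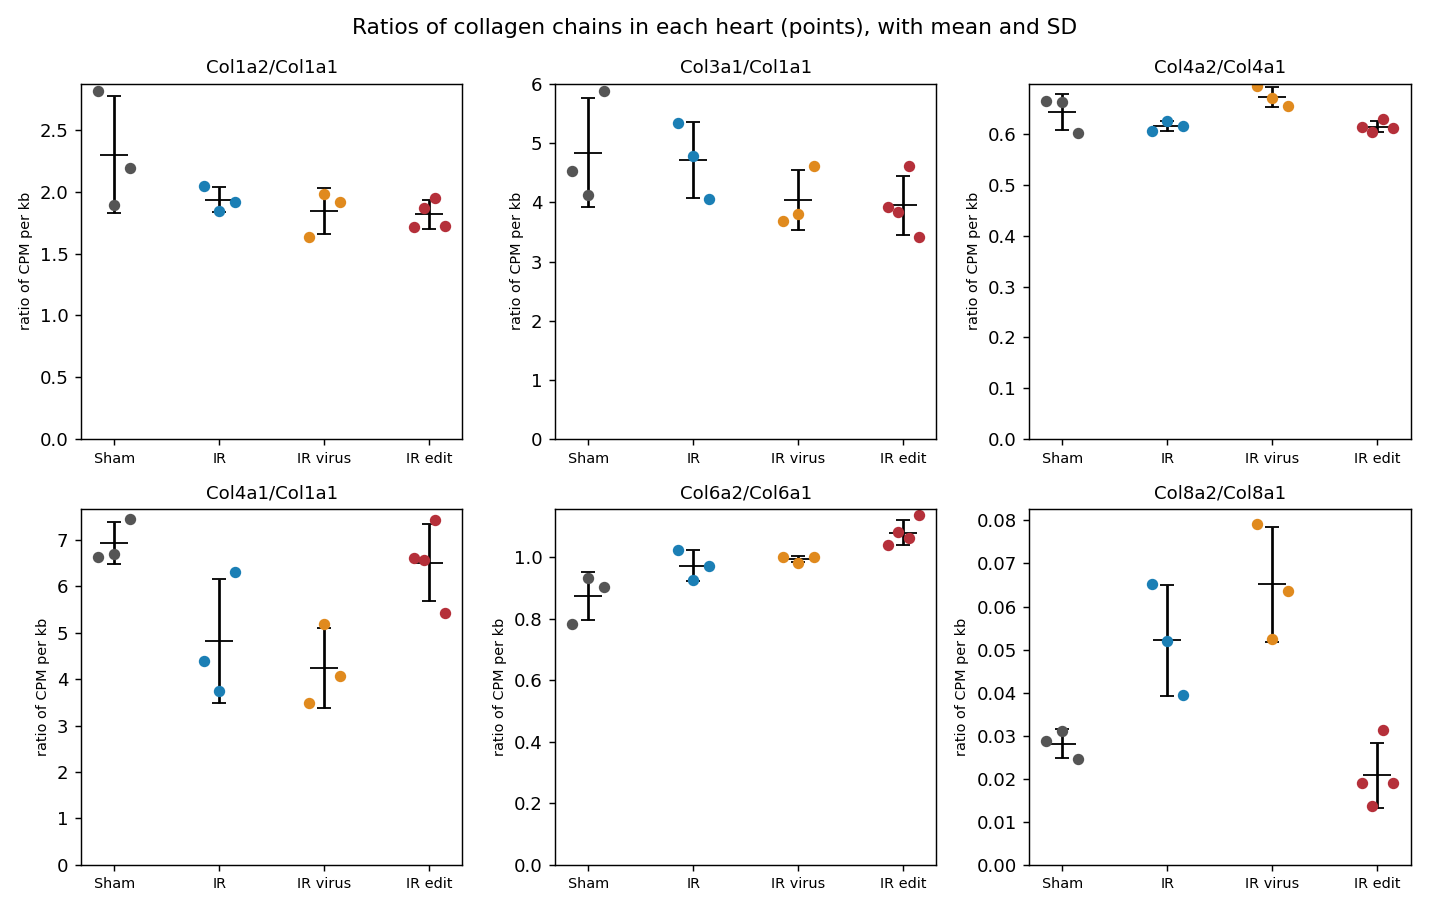
Ratios of CPM per kb between collagen chains in each heart (points), by group, with the mean as a horizontal line and the SD as bars; vertical axes start at 0. Col4a2 over Col4a1 stayed between 0.602 and 0.695, while Col8a2 over Col8a1 was higher in IR and IR virus than in Sham and IR edit.

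The remaining chains were rare or without a call. The 2 transmembrane chains Col13a1 and Col23a1 passed no comparison. Col25a1, a transmembrane chain known from the brain and from motor nerve endings, stood at 0.604, 0.732 and 0.662 CPM in Sham, 0.996, 0.725 and 0.52 in IR, 0.637, 0.462 and 0.631 in IR virus, and 0.519, 0.493, 0.31 and 0.364 in IR edit. The 4 IR edit hearts lay below the 3 Sham hearts, with a log2 fold change of -0.63 ± 0.30 (SE, adjusted p = 0.216). Col7a1, the anchoring fibril chain of skin, differed by 0.62 ± 0.41 (SE, adjusted p = 0.504) between IR edit and IR virus, over 5 to 30 reads per heart. Col28a1 differed by 0.56 ± 0.29 (SE, adjusted p = 0.266) between IR edit and Sham. Below the count filter were 9 chains, each with 2 to 64 reads over all 13 libraries: Col2a1, Col24a1, Col9a1, Col9a3, Col19a1, Col6a4, Col10a1, Col17a1 and Col26a1. They include the chains typical of cartilage (Col2a1, Col9a1 and Col10a1) and of epithelial anchoring (Col17a1), and with that filter they were not tested for differences.

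**Figure D5:**
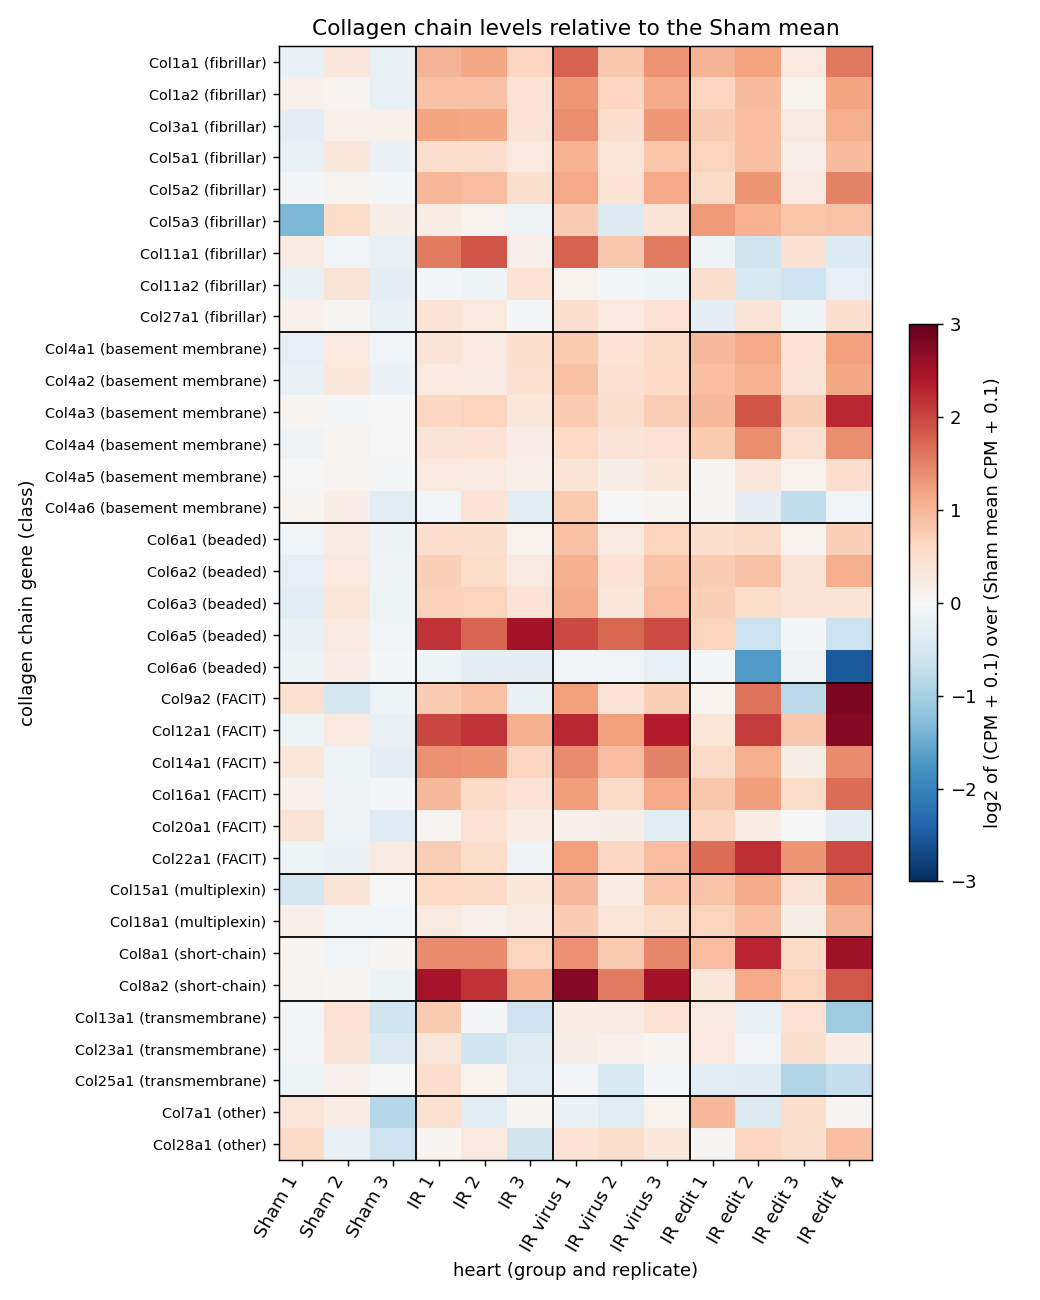
Level of each collagen chain in each heart relative to the mean of the 3 Sham hearts, on the log2 scale (colour, limited at 3 in either direction, after adding 0.1 CPM), with chains in rows by class and hearts in columns. IR edit replicates 2 and 4 are the darkest columns for Col4a3 and Col8a1 and the lowest for Col6a6.

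Genes that process and bind collagen were read from lists by role. Over all genes tested, 4.61% rose and 3.4% fell in IR edit minus Sham, so 1 call in a list is near that share. The list calls are given with all 4 IR edit hearts, and not without replicates 2 and 4. Of 16 tested genes for chain hydroxylation and folding, 0 rose and 1 fell in IR edit minus Sham, P3h4 (-0.53), and of 5 for secretion 1 fell, Ctage5 (-0.38). Of 8 genes for propeptide removal 1 rose, the procollagen N-proteinase Adamts2 (0.96). Of 6 crosslinking genes 2 rose, the lysyl oxidases Loxl1 (1.10) and Loxl2 (0.84), and of 10 degradation genes 3 rose, the proteases Mmp3 (0.84) and Mmp14 (0.74) and the inhibitor Timp1 (2.24). Of 9 receptors none passed; Itga11, a collagen-binding integrin, had the smallest p (0.96, adjusted p = 0.0579). Of 10 proteins that bind fibrils 5 rose, among them Bgn (1.39), Postn (2.01), Thbs1 (1.95) and Thbs4 (1.76), and of 11 upstream regulators 3 rose, the TGF-beta ligands Tgfb2 (0.84) and Tgfb3 (0.90) and the TGF-beta target Ctgf (2.13). IR edit and Sham hearts overlapped for Ctage5, Loxl1, Loxl2 and the remaining fibril-binding gene that rose, Sparc (0.62, adjusted p = 0.0499). They did not overlap for the other called genes named so far. In unedited injured hearts 1 gene of all these lists rose, Thbs4 (2.45, adjusted p = 0.0126), beside 0.0127% of all genes. Between IR edit and IR virus 1 changed, the fibril-binding proteoglycan Fmod, which fell (-1.52, adjusted p = 0.0241), from 8.19 to 22.4 CPM in IR virus to 4.03 to 7.20 in IR edit. Over all genes 2.02% changed in that comparison.

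Cell type markers moved beside the collagens. Calls against Sham are given with all 4 IR edit hearts only, beside 4.61% of all genes that rose and 3.4% that fell. The summed level of 8 markers of activated fibroblasts was 81.1 to 84.1 CPM in Sham, 173 to 341 in IR, 189 to 349 in IR virus, and 146, 439, 104 and 666 in IR edit replicates 1 to 4, and 4 of the 8 (Cilp, Ltbp2, Postn and Meox1) rose in IR edit minus Sham. Of 7 general fibroblast markers 2 rose (Pdgfra and Gsn), with sums of 1310 to 1386 CPM in Sham, 1503 to 1874 in IR, 1690 to 1888 in IR virus and 1459 to 1935 in IR edit. Of 8 mural and smooth muscle markers 2 fell (Kcnj8 and Abcc9), with sums of 1610 to 1796 in Sham, 1596 to 1738 in IR, 1536 to 1634 in IR virus and 1134 to 1456 in IR edit. Not called were Rgs5 (-0.22), Myh11 (-0.23) and Cnn1 (-0.11), and with the other sign Cspg4 (0.28), Notch3 (0.18) and Pdgfrb (0.01). Of 8 endothelial markers 1 fell (Fabp4), of 3 tested mesothelial markers 1 rose (Wt1), and none of 7 cardiomyocyte markers passed, whose sum of 37210 to 47782 CPM marks all 13 libraries as heart. Between IR edit and IR 2 markers of all lists fell, the endothelial Emcn (-0.36, adjusted p = 0.0225) and Cthrc1 of the activated fibroblast list (-2.05, adjusted p = 0.0317). Over all genes 0.637% fell in that comparison. Of the 8 activated fibroblast markers 4 were positive in that comparison and 4 negative, with a median of -0.05. Emcn differed by -0.27 (adjusted p = 0.962) between IR virus and IR, and by -0.09 (adjusted p = 0.600) between IR edit and IR virus. No marker of macrophages, Schwann cells, adipocytes or skeletal muscle passed in IR edit minus Sham, and the 4 of lung epithelium, summing to at most 0.378 CPM, were too rare to test. No marker was at 0 in all libraries. The part of these cell types in the collagen values was not tested.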

How the data were processed

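Whole-genome gene expression was measured by RNA sequencing in 13 mouse hearts. The authors deposited 1 table of raw read counts per gene for each library. Reads were trimmed with Trimmomatic 0.39, aligned to mm10 with HISAT2 2.1.0 and counted with featureCounts 1.6.2, with FastQC 0.11.8 for quality, per the submitters' processing notes. The sources used here do not give the gene annotation or strand setting, so reads of overlapping genes may be split.

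Counts were scaled by TMM and filtered with filterByExpr, which left 15690 genes. Groups were compared with edgeR 4.0.16 (R 4.3.3, limma 3.58.1), by its quasi-likelihood test on 13 libraries with group means only and Benjamini-Hochberg adjustment over all genes tested, at an adjusted p of 0.05. The standard error (SE) is the log2 fold change over the square root of F. The procedure was run on simulated data with known changes. The simulated IR edit hearts were not split as the real ones were, so the effect of that split on the calls was not checked. DESeq2 1.42.0, other scalings and filters, robust dispersion, fewer libraries and a replicate block were tried as alternatives. Levels per kilobase use the exons of the longest coding transcript.

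Values per heart are given for the major chains of each class and for the chain with the smallest p in each class in IR edit minus IR virus and IR edit minus Sham, every chain past the threshold is named, and of each gene list up to 4 genes past the threshold, or the one with the smallest p, are named. Col5a3, Col6a6, Col4a6 and Col9a2 were named after their values were seen, as were Sparc and the uncalled cartilage and mural markers. The collagen genes and all lists were chosen with earlier results of these data known. No 2 libraries agreed within sampling noise (chi-square per degree of freedom 4.82 to 57.1).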

Additional observations from a re-analysis of the deposited data

How the results depend on the processing

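The number of chains past the threshold depended on the fit. In the order IR minus Sham, IR virus minus Sham, both unedited groups minus Sham, IR edit minus Sham, IR edit minus IR virus and IR edit minus IR it was 0, 0, 0, 16, 2 and 2. With no filter on low counts, the first 3 became 19, 22 and 20 of 44 (1.87%, 2.7% and 2.94% of all genes) and the last 2 became 12 and 14 (3.18% and 3.19%). DESeq2's Wald test gave 2, 12 and 12 for the first 3 (0.363%, 1.49% and 1.54%) and 5 and 6 for the last 2 (3.3% and 2.82%). Fits of the compared groups alone gave 9, 10, 16, 4 and 1 for the first 5 (0.769%, 1.35%, 2.56%, 1.62% and 1.44%). DESeq2 size factors and upper-quartile scaling each gave 2 for both unedited groups minus Sham (0.166% and 0.147%). A filter at 1 CPM in 3 libraries left 1 in each of the last 2 (2.26% and 1.58%), and robust dispersion left 8 in IR edit minus Sham (7.16%). Leaving out IR edit replicates 2 and 4 together, an alternative chosen after seeing the data, gave 6, 15, 14, 3, 0 and 0 (0.906%, 1.62%, 2.37%, 0.994%, 0.566% and 0.491%).

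Leaving out 1 library gave 7 to 20 chains in IR edit minus Sham (3.06% to 15% of all genes). It gave 0 to 6 in IR edit minus IR virus (0.603% to 3.06%) and 1 to 8 in IR edit minus IR (0.37% to 3.13%). For IR virus minus Sham it gave 0 to 10 (0% to 0.831%), and for both unedited groups 0 to 13 (0.00627% to 1.6%). Medians then ranged from -0.50 to -0.13 for beaded filament chains in IR edit minus IR virus, and for FACIT chains from -0.076 to 0.44 in IR edit minus IR and from 0.91 to 1.68 in IR edit minus Sham. With no filter the medians were 0.95 for FACIT and 0.24 for beaded filament chains in IR edit minus Sham, and 0.43 and 0.59 for fibrillar chains in IR and in both unedited groups minus Sham. The FACIT median in IR edit minus Sham was 1.15 with the 1 CPM filter, which Col9a2 did not pass, and with the compared groups alone. Without IR edit replicates 2 and 4 the medians in IR edit minus Sham were 0.50 over all chains, 0.42 fibrillar, 0.65 basement membrane and 0.60 FACIT. In IR edit minus IR virus they were -0.25, -0.59, 0.060 and -0.34, and in IR edit minus IR -0.35 for fibrillar and 0.30 for basement membrane chains. Col6a6 (0.063) and Col15a1 (-0.065) changed sign in IR edit minus IR virus there. The cause was not tested.

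The labels do not say whether replicate numbers pair the libraries. Same-numbered hearts had correlations of -0.13 to 0.22, above 0.1 in 4 of 18 pairs. Differently numbered hearts had correlations of -0.19 to 0.21, above 0.1 in 5 of 45 pairs. Correlations this weak cannot decide the question, and a shared litter or batch was not tested. With the replicate block, 7 chains passed in IR virus minus Sham (1.11% of all genes), 6 for both unedited groups (1.15%), 6 in IR edit minus Sham (3.76%) and 0 in IR edit minus IR virus, and the FACIT medians were 0.89 in IR edit minus Sham and -0.20 in IR edit minus IR virus. IR edit replicate 4 is alone at its number. Chains with few reads, such as Col6a5 and Col11a1, are limited by depth.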
